A study of Mus musculus with 34 samples.

Results

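Cell cycle and DNA replication genes were examined in mouse liver RNA across 2 feeding experiments. The 45 genes were chosen by name, 14 with roles in DNA replication, 3 in G1 and its transcription and 28 in mitosis, and each was matched to the gene symbol of the deposited count tables. Earlier results of these data were known when they were chosen, so their counts beside all genes describe the list and do not test it. Of the 45, 42 were among the 14436 genes of the table of the Bcl2TG experiment and 34 among the 13817 genes of the table of the S100a8 experiment. Bub1, Melk and Ncapg were listed in neither table, and Ccnb1, Plk1, Aurkb, Cenpe, Cenpf, Hmmr, Kif20a and Kif23 were listed in the Bcl2TG table alone. The tables list no gene below a mean of 7.125 counts per library in the Bcl2TG experiment, so the members listed had passed a filter on low values and are not all members.

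All mice were males, 8 weeks old when feeding began, and the livers were sequenced whole, 1 library a mouse. In the first experiment, 5 Bcl2TG and 5 WT mice received a high-fat diet (HFD, 60% of calories from fat) and 3 Bcl2TG and 3 WT mice a chow diet (10% of calories from fat) for 3 months. Bcl2TG mice carried a Cre-inducible Bcl2 transgene switched on by Cre under the adiponectin promoter, and WT mice were their littermates. The paper describes the transgene as built to act in adipocytes alone, whereas the liver was sequenced here. In the second experiment, 4 S100a8f/fCx3cr1Cre and 5 S100a8f/f mice received the HFD and 5 S100a8f/fCx3cr1Cre and 4 S100a8f/f mice the chow diet. Both genotypes of that experiment carried the floxed S100a8 allele, and Cre under the Cx3cr1 promoter deletes it in macrophages and their precursors and not in neutrophils. The comparisons asked what the diet did to these genes in each genotype, and whether sparing adipocytes from death or removing S100a8 from macrophages changed it.

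In an adult liver almost all hepatocytes rest outside the cell cycle and re-enter it after cell loss or injury. Entry is driven by D-type cyclins, which free E2F transcription factors to switch on the genes of DNA replication. In G1 the ORC and CDC6 proteins load the MCM2-7 helicase onto origins, and in S phase CDC45 and the GINS complex activate it. Mitotic genes come later in the cycle, under FOXM1, B-MYB and the DREAM complex, and encode the cyclin B kinase, the spindle, the kinetochore and the apparatus that divides the cell. Liver cells can also replicate DNA without dividing and become polyploid, which is why the replication genes and the mitosis genes are set side by side here.

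Many, though not all, of the promoters of these genes carry letters by which the groups are usually told apart. The sequences of 6 members on which the results turn are shown for that reason. They were taken from RefSeq (GRCm38.p6), span 250 bases before to 50 after the start of transcription, and were available for 36 of the 45 members. Mcm4, Gins2, Ccnd1, Foxm1, Ccna2, Aurkb, Tpx2, Stmn1 and Kif20a had no entry. The letters searched on both strands were 4 forms of the E2F site (TTTCCCGC, TTTGGCGC, TTTCGCGC and TTTGCCGC), the cell cycle homology region or CHR (TTTGAA and TTCGAA) and CCAAT. E2F matches are capitalised in Mcm3 (chr1:20820263-20820562, minus strand) and Mcm6 (chr1:128359656-128359955, minus strand), and CHR matches in Mcm2 (chr6:88898731-88899030, minus strand), Ccnb2 (chr9:70421505-70421804, minus strand) and Top2a (chr11:99024140-99024439, minus strand). The Tk1 promoter (chr11:117825965-117826264, minus strand) held neither, and all are written 5′ to 3′ on the gene's strand.
Mcm3: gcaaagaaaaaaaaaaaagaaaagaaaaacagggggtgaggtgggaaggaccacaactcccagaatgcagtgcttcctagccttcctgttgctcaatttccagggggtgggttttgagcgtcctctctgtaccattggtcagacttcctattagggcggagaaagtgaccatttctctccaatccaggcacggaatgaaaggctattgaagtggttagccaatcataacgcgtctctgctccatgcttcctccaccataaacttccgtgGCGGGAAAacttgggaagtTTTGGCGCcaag
Mcm6: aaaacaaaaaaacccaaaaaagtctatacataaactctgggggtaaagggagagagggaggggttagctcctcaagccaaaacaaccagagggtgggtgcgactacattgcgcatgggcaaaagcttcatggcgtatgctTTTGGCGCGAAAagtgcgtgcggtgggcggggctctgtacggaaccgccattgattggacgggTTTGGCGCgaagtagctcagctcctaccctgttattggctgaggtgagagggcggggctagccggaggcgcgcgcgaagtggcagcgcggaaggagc
Mcm2: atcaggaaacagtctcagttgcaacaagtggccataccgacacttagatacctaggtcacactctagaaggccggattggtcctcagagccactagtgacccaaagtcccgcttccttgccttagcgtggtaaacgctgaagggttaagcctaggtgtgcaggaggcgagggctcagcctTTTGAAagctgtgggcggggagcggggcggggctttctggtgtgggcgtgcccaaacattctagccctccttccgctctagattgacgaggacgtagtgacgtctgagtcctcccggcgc
Ccnb2: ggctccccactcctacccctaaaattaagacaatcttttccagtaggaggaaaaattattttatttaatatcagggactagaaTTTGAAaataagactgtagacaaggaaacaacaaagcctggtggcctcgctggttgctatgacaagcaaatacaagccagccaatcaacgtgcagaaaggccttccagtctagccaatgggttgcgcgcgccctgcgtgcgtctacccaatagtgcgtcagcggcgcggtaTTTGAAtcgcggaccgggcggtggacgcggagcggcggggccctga
Top2a: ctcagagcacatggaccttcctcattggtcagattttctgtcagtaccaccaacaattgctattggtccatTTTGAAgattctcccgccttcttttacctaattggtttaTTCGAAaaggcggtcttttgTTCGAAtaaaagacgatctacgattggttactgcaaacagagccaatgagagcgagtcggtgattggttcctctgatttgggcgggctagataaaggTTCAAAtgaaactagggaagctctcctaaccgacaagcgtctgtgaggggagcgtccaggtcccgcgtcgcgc
Tk1: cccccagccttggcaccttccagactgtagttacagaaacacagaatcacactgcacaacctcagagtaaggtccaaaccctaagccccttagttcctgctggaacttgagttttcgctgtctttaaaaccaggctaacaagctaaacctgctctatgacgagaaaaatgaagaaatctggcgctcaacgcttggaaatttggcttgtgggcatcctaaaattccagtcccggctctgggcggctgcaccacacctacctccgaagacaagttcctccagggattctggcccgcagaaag

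E2F letters stood in 5 of 13 promoters of replication members and in 2 of 25 promoters of mitosis members, against 2.26% of all 32851 mouse promoters in RefSeq. CHR letters stood in 3 of 13 replication promoters and 20 of 25 mitosis promoters, against 19.2% of all promoters. CCAAT stood in 10 of 13 and 21 of 25, against 37.4%. Of the 36 members with a promoter, 11 held neither E2F nor CHR letters. In the set of promoters available, E2F letters were thus found mainly on the replication side and CHR letters mainly on the mitosis side, with Mcm2 among the replication genes that carried the CHR letters. A match describes these windows and does not show that a factor binds there.

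Before the members, the libraries were checked. Totals per library ran from 18628257 to 52395073 counts over all 34 libraries, and those HFD libraries of the Bcl2TG experiment that are numbered 1 to 3 (28187998 to 52395073 counts) were deeper than those numbered 4 to 6 (21758112 to 26237562 counts). Hepatocyte markers (Alb, Apoa1 and 7 others) summed to between 67980 and 122100 CPM, counts scaled to library size, in every library. Liver Bcl2 was 8.98 to 14.9 CPM in HFD Bcl2TG livers, against 21.3 CPM in replicate 1 and 2.72 to 2.94 CPM in the other 4 replicates of HFD WT. On chow it was 4.17 to 8.44 CPM in Bcl2TG livers and 7.75 to 11.3 CPM in WT livers. Liver Bcl2 thus did not separate the labels on chow, and on HFD it did so only when HFD WT replicate 1 was set aside. Whether the label of that library is right cannot be told from these values. Without the HFD WT replicate 1, 13 members passed the test between the HFD genotypes in place of the 15 given later. S100a8 was not listed in the table of its own experiment. The labels give 1 library a mouse but no litter or batch, so p-values measure the spread between these libraries. In bulk liver, fewer cells of a type and less RNA per cell cannot be told apart, for every gene below.

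Most of the listed members were higher on HFD in WT livers. At an adjusted p under 0.05 (edgeR quasi-likelihood test, Benjamini-Hochberg over all genes of the comparison), 30 of the 42 listed members were higher and 1, Tk1, was lower in HFD WT than in Chow WT livers, while 15.4% of all 14436 genes passed (8.4% higher and 6.98% lower). The median log2 fold change was 1.5 over the members and -0.02 over all genes tested. By role, 7 of 10 genes of origin licensing and the helicase were higher (median 1.46), none of the 4 genes of the clamp and nucleotide supply (median -0.03, with Tk1 lower), all 3 of G1 (median 1.47) and 20 of 25 of mitosis (median 2.04). Some of these genes stood on few reads in chow livers and may be listed only through their HFD level. A member listed that way had to differ, so no class is read against another from these medians. Among members with a mean of at least 1 CPM over all libraries, 6 of 12 replication genes were higher and 1 lower (median 0.70) and 10 of 13 mitosis genes were higher (median 1.43). Within mitosis, 7 of 10 cyclins, kinases and checkpoint genes, both chromosome genes, 6 of 7 kinetochore and spindle genes and 5 of 6 midzone and cytokinesis genes were higher.

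Between HFD Bcl2TG and HFD WT livers a minority of the members passed, most of them as lower in HFD Bcl2TG livers. Of the 42, 14 were lower, 1 (Tk1) was higher and 27 did not pass, while 6.71% of all genes passed (2.42% higher and 4.29% lower), and the median log2 fold change was -0.86 over the members and 0.01 over all genes. Of the 42 fold changes 37 were negative and 5 positive. In 18 members every HFD Bcl2TG library lay below every HFD WT library, as in 4.53% of all genes. The 14 were Mcm2, Mcm3, Mcm4, Mcm6 and Gins2 of replication, Ccnd1 and E2f1 of G1, and Ccnb2, Bub1b, Top2a, Mki67, Kif11, Ect2 and Anln of mitosis. Just outside the threshold stood Cenpf and Stmn1 (adjusted p = 0.0527 each), and just inside it Kif11 (adjusted p = 0.0434). The call of Kif11 was lost in 16 of 25 alternatives, those of E2f1 and Anln in 10 each, Ect2 in 8, Mki67 and Mcm4 in 7 each and Bub1b in 5, of which 12, 6, 7, 5, 4, 4 and 2 left out 1 library, taking the genes in that order. The calls of the other 7 lower members were lost in 1 to 3, none of which left out a single library. The count fell without some libraries, and the share of all genes that passed, 6.71% with all libraries, fell too. The count was 9 without HFD Bcl2TG replicate 1 (4.17% of all genes) or 3 (5.49%) and 9 without HFD WT replicate 5 (3.58%). The count was 8 without HFD WT replicate 4 (3.44%), and 3 without HFD WT replicates 4 and 5 together, where the median of the members was -0.67. Among the HFD libraries numbered 1 to 3 with all chow libraries it was 2, while 0.367% of all genes passed, and the median was -0.76. With DESeq2 the count was 25 and with limma-voom 28, for which the shares of all genes are not given here.

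**Figure D1:**
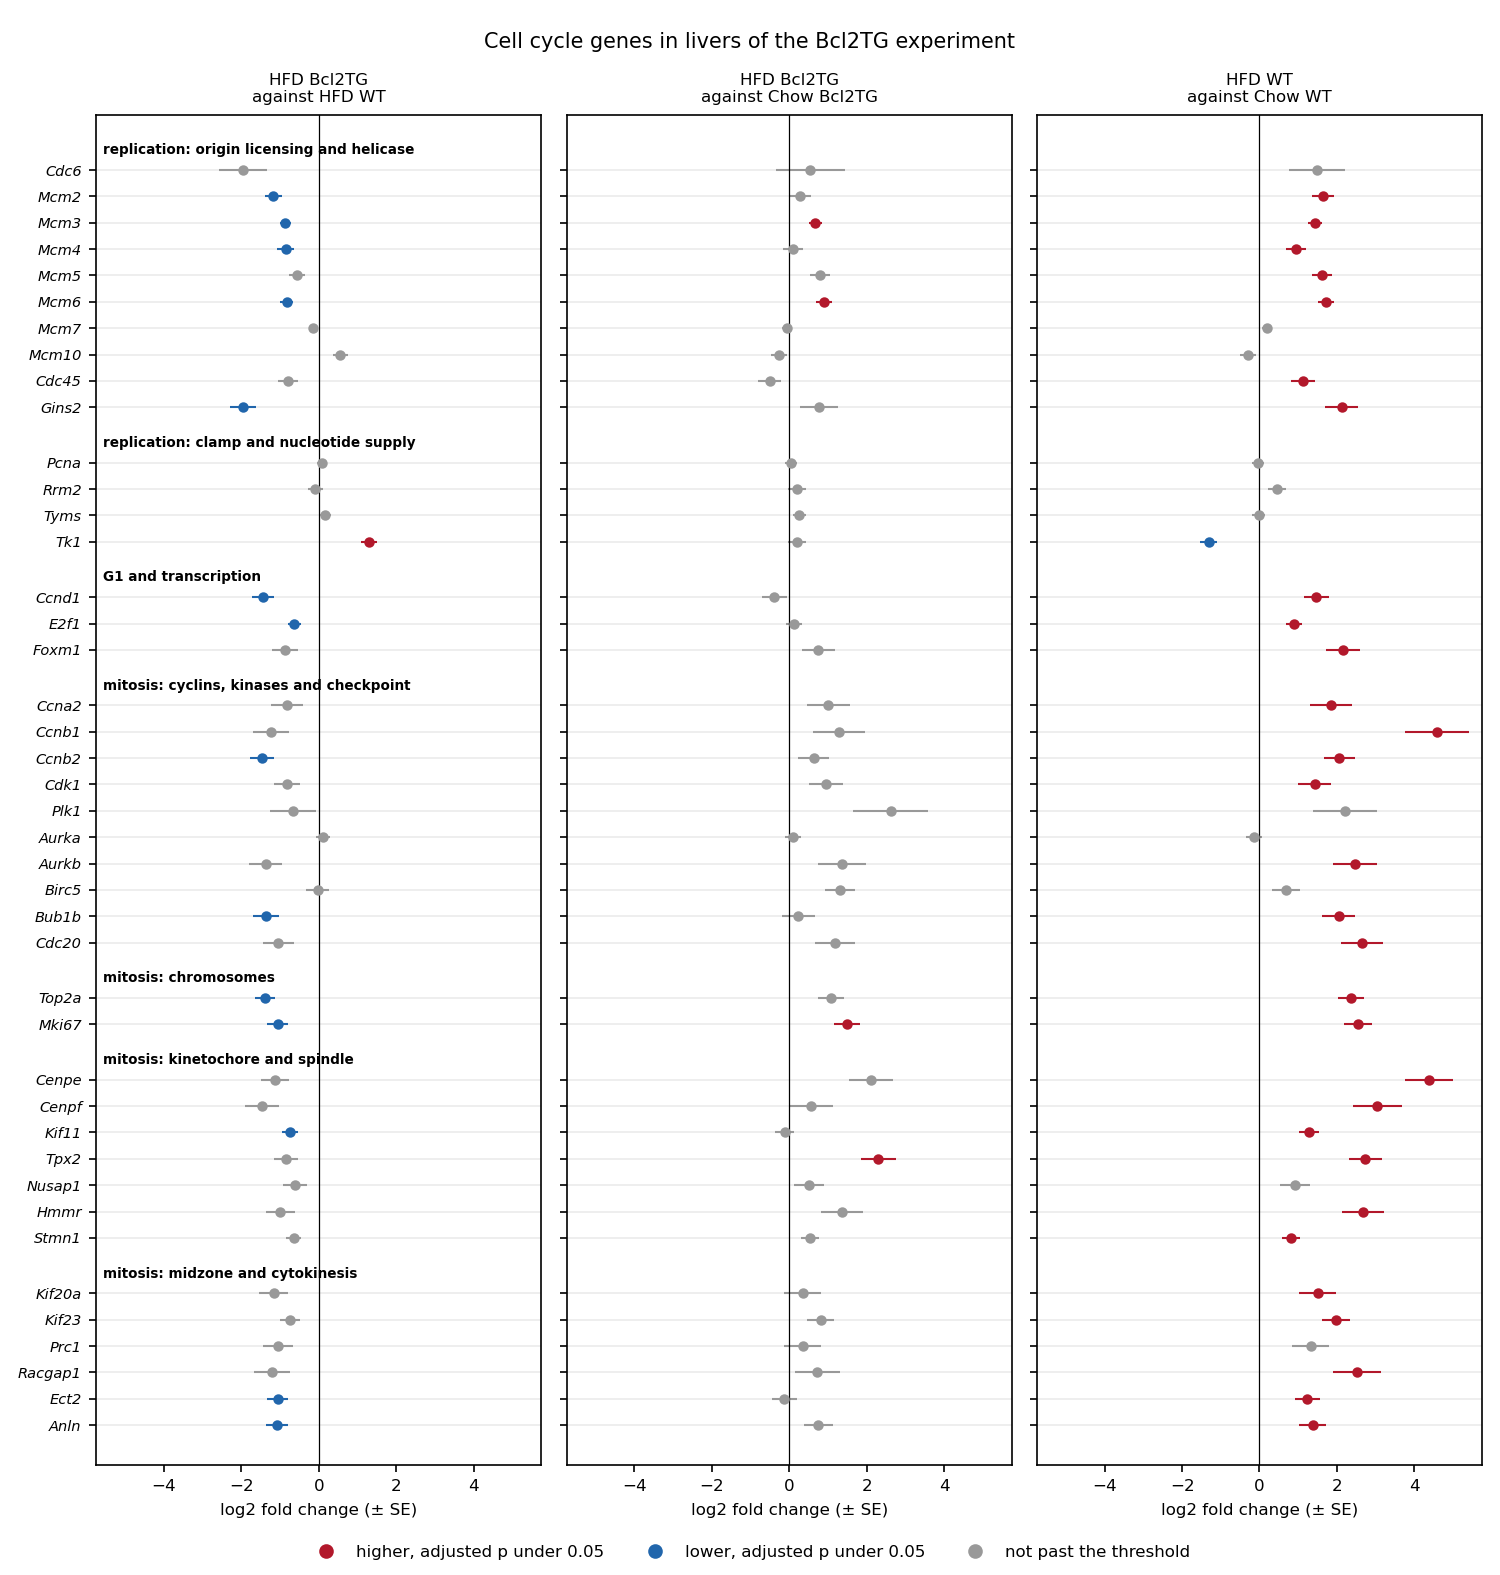
Log2 fold changes of the 42 listed members in the Bcl2TG experiment, ordered by role, for HFD Bcl2TG against HFD WT, HFD Bcl2TG against Chow Bcl2TG and HFD WT against Chow WT. Points are edgeR estimates, bars 1 standard error, red and blue mark members that passed as higher or lower and grey those that did not; 14 members were lower and 1 higher in the first panel, 4 higher in the second, and 30 higher and 1 lower in the third.

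Of the helicase subunits, Mcm3 had the smallest p between the genotypes on HFD. Mcm3 (ENSMUSG00000041859, chromosome 1 of GRCm38, 20802968 to 20820312) was at 5.77, 5.66, 4.36, 5 and 6.58 CPM in HFD Bcl2TG livers, against 8.46, 9.28, 9.33, 10.1 and 12.6 CPM in HFD WT livers. It was at 2.92, 3.69 and 3.62 CPM in Chow Bcl2TG livers and at 4.01, 3.70 and 3.34 CPM in Chow WT livers. The HFD Bcl2TG libraries therefore lay between the chow libraries and the HFD WT libraries, with no overlap on either side. The log2 fold change was -0.87 (SE 0.14, adjusted p = 0.0026) between the HFD genotypes, 0.68 (SE 0.18, adjusted p = 0.0483) for HFD against chow in Bcl2TG livers and 1.43 (SE 0.18, adjusted p = 8.97e-05) for HFD against chow in WT livers. Among the HFD libraries numbered 1 to 3 Mcm3 did not pass between the genotypes (adjusted p = 0.0709).

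Mcm6, another subunit of the same ring, showed the same order. It was at 6.06, 5.35, 3.74, 6.57 and 4.97 CPM in HFD Bcl2TG livers, against 8.67, 8.09, 7.65, 11.1 and 11.9 CPM in HFD WT livers. On chow it was at 2.80, 3.22 and 2.47 CPM in Bcl2TG livers and 2.54, 3 and 3.10 CPM in WT livers. Every HFD library of either genotype was above every chow library. On the log2 scale the fold change was -0.83 (SE 0.17, adjusted p = 0.00854) between the HFD genotypes, 0.91 (SE 0.21, adjusted p = 0.0282) for the diet in Bcl2TG livers and 1.72 (SE 0.21, adjusted p = 8.97e-05) for the diet in WT livers.

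Mcm2 differed in that HFD Bcl2TG livers did not separate from chow. Its level was 4.44, 6.04, 3.19, 4.44 and 5.75 CPM in HFD Bcl2TG livers, against 9.02, 6.36, 10.7, 13.9 and 14.1 CPM in HFD WT livers. The chow libraries held 3.27, 3.91 and 4.51 CPM in Bcl2TG and 3.53, 2.75 and 4.11 CPM in WT. The HFD groups did not overlap, though the lowest WT library was close to the highest Bcl2TG library. This gave a log2 fold change of -1.18 (SE 0.22, adjusted p = 0.00504) between the HFD genotypes and 1.64 (SE 0.27, adjusted p = 0.000867) for the diet in WT livers. Without HFD WT replicates 4 and 5, Mcm2 and Mcm6 did not pass between the genotypes, and neither did among the libraries numbered 1 to 3.

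Mcm4 and Mcm5 are subunits of the same ring. Mcm4 was at 4.79, 7.43, 3.02, 4.07 and 5.29 CPM in HFD Bcl2TG livers, against 8.06, 7.45, 8.38, 9.76 and 11 CPM in HFD WT livers. On chow Mcm4 was at 4.55, 3.62 and 5.62 CPM in Bcl2TG livers and 5.18, 3.33 and 5.33 CPM in WT livers. HFD Bcl2TG replicate 2 reached up to the lowest WT library without passing it, and Mcm4 was lower in HFD Bcl2TG livers (log2 fold change -0.86, SE 0.22, adjusted p = 0.0248) and higher in HFD WT than Chow WT livers (0.95, adjusted p = 0.0195). Mcm5 was at 3.11, 3.75, 2.79, 3.33 and 3.49 CPM in HFD Bcl2TG livers, against 4.24, 4.29, 5.02, 4.9 and 5.97 CPM in HFD WT livers. Chow livers held 1.91, 1.52 and 2.26 CPM of Mcm5 in Bcl2TG and 1.61, 0.822 and 2.37 CPM in WT. The order was again HFD WT, HFD Bcl2TG and chow without overlap, although Mcm5 did not pass between the HFD genotypes (-0.57, adjusted p = 0.123). It rose with the diet in WT livers (1.62, SE 0.27, adjusted p = 0.000829) and was 0.80 for the diet in Bcl2TG livers (adjusted p = 0.12), and the test of the difference between these diet effects did not pass (adjusted p = 0.314).

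Gins2, a subunit of the GINS complex that completes the active helicase, had the largest called difference between the HFD genotypes. It held 0.319, 0.386, 0.119, 0.139 and 0.506 CPM in HFD Bcl2TG livers, against 0.919, 1.16, 0.985, 1.53 and 1.12 CPM in HFD WT livers. Chow Bcl2TG livers were at 0.195, 0.109 and 0.210 CPM and Chow WT livers at 0.240, 0.288 and 0.242 CPM. The 5 HFD WT libraries stood apart from all others, on counts of 31 to 55 reads a library against 3 to 15 in HFD Bcl2TG. The log2 fold change was -1.96 (SE 0.34, adjusted p = 0.00336) between the HFD genotypes and 2.13 (SE 0.43, adjusted p = 0.00349) for the diet in WT livers. Of the exon bases of Gins2 67.3% lie over exons of Gse1 on the opposite strand, and the strand setting of the counting is not given in the sources used here, so the gene that gave these reads is uncertain. Cdc45, which also joins the active helicase and, like Mcm7, Cdc6 and Stmn1, is named outside the rule after its values were seen, rose with the diet in WT livers (1.13, adjusted p = 0.0208). Cdc6 was at 0 to 0.437 CPM in HFD Bcl2TG livers and 0.269 to 1.62 CPM in HFD WT livers, without passing (adjusted p = 0.0646).

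Not every gene of the replication fork took part. Mcm7 was 0.20 for the diet in WT livers (adjusted p = 0.305) and -0.15 between the HFD genotypes (adjusted p = 0.464), on the log2 scale. Mcm10, which links the helicase to polymerase alpha and is named here after its values were seen, was at 60.4 to 117 CPM in HFD Bcl2TG livers and 41.9 to 67 CPM in HFD WT livers (log2 fold change 0.56, adjusted p = 0.0839). Per kilobase of exon, Mcm10 was at 7.27 CPM in HFD WT livers against 2.66 CPM for Mcm3. Pcna, the sliding clamp of the replicative polymerases, was at 26.2, 26.4, 27.4, 33.9 and 30.9 CPM in HFD Bcl2TG livers, against 28.3, 20.8, 30.3, 25.8 and 32 CPM in HFD WT livers. On chow Pcna was at 28.1, 29 and 26.9 CPM in Bcl2TG livers and 25, 34.7 and 25.2 CPM in WT livers. All 4 groups overlapped, with log2 fold changes of 0.08 between the HFD genotypes (adjusted p = 0.77) and -0.04 for the diet in WT livers (adjusted p = 0.875). Rrm2, the small subunit of ribonucleotide reductase, and Tyms, thymidylate synthase, were 0.45 and -0.02 for the diet in WT livers, neither past the test.

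Tk1 was the only member called higher between the HFD genotypes and the only one called lower with the diet in WT livers. It encodes the cytosolic thymidine kinase of the nucleotide salvage pathway, usually most abundant in S phase (ENSMUSG00000025574, chromosome 11 of GRCm38, 117815526 to 117826092). Tk1 was at 34.3, 19.0, 27.4, 19.0 and 23.2 CPM in HFD Bcl2TG livers, against 6.90, 14.3, 8.55, 9.04 and 11.3 CPM in HFD WT livers. It was at 19.7, 18.1 and 26.4 CPM in Chow Bcl2TG livers and at 25.1, 24.6 and 25.0 CPM in Chow WT livers. The HFD WT libraries were thus the low ones, and the HFD Bcl2TG libraries overlapped both chow groups. On the log2 scale the fold change was 1.30 (SE 0.20, adjusted p = 0.00177) between the HFD genotypes, -1.31 (SE 0.22, adjusted p = 0.000934) for the diet in WT livers and 0.21 (adjusted p = 0.716) for the diet in Bcl2TG livers. The call between the HFD genotypes held under all 25 alternatives, as it did for no other member.

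**Figure D2:**
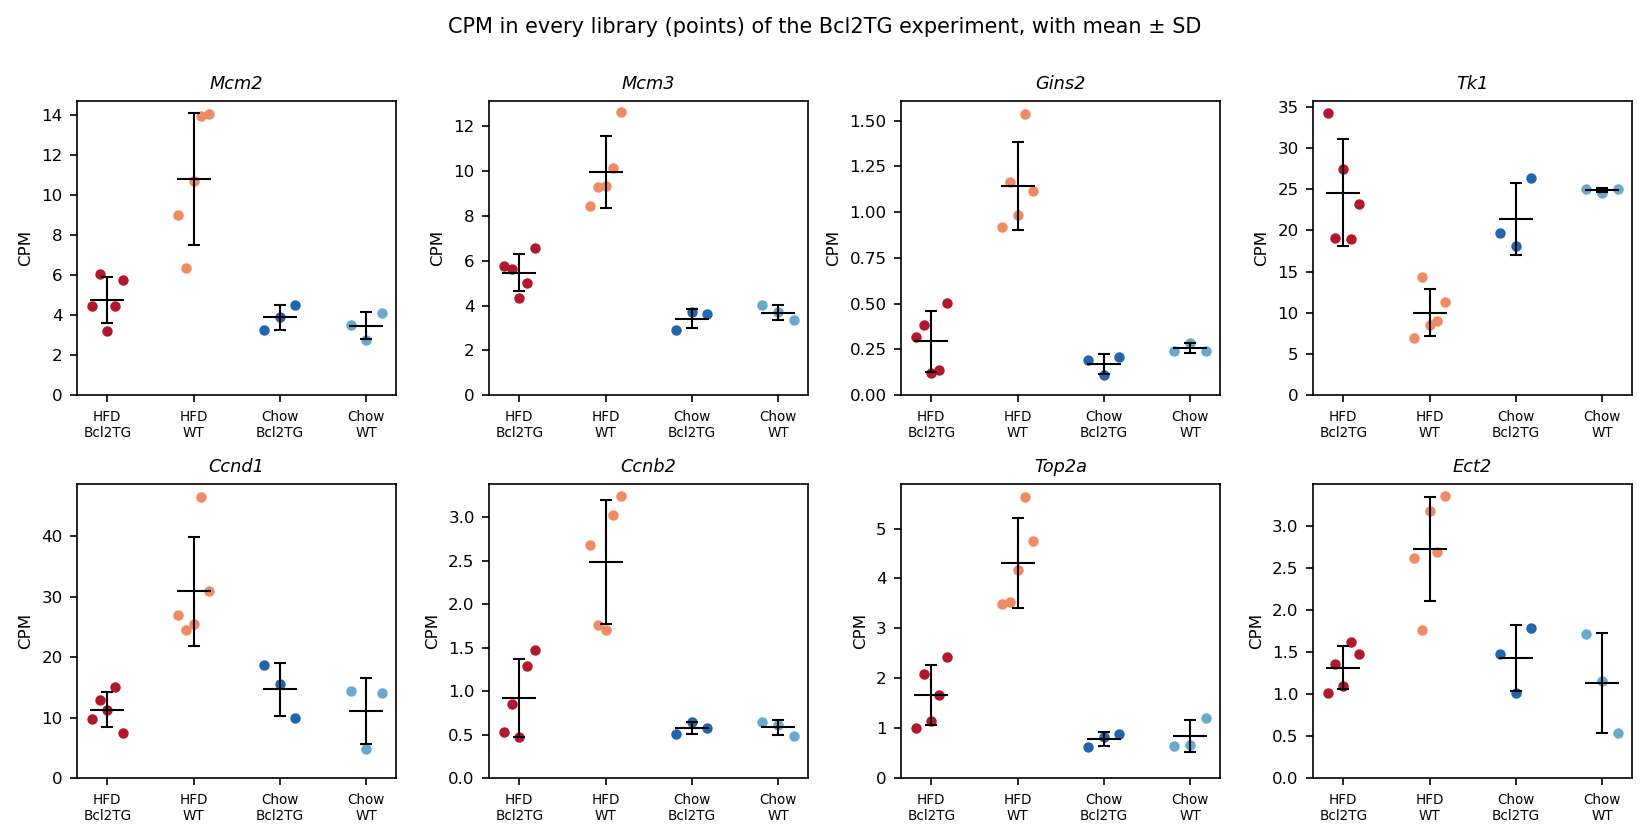
CPM of 8 members in each library of the Bcl2TG experiment, with HFD Bcl2TG, HFD WT, Chow Bcl2TG and Chow WT along the horizontal axis and bars for the mean and SD. For Mcm2, Mcm3, Gins2, Ccnd1, Ccnb2, Top2a and Ect2 every HFD WT library lies above every HFD Bcl2TG library, and for Tk1 the HFD WT libraries (6.90 to 14.3 CPM) lie below the other 3 groups.

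Among the G1 genes, Ccnd1 was at chow level in HFD Bcl2TG livers. Ccnd1 encodes cyclin D1, whose rise marks hepatocytes leaving rest. It was at 9.73, 13.0, 11.2, 15.1 and 7.54 CPM in HFD Bcl2TG livers, against 27.0, 24.5, 25.5, 46.5 and 31.0 CPM in HFD WT livers. Chow Bcl2TG livers held 18.6, 15.5 and 9.97 CPM and Chow WT livers 14.5, 4.77 and 14.0 CPM. The HFD WT libraries lay above all others, with replicate 4 the highest. This gave a log2 fold change of -1.44 (SE 0.28, adjusted p = 0.0061) between the HFD genotypes, 1.47 (SE 0.34, adjusted p = 0.00748) for the diet in WT livers and -0.38 (adjusted p = 0.623) for the diet in Bcl2TG livers. The call between the HFD genotypes was lost in 3 alternatives, namely the replicate block, the fit without HFD WT replicates 4 and 5 and the fit of HFD libraries 1 to 3, and its adjusted p over all 25 ran from 2.48e-05 to 0.157. Ccnd1 shares 23.4% of its exon bases with a gene on the opposite strand.

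E2f1, a transcription factor that switches on replication genes, followed with a smaller difference. It was at 3.43, 6.22, 3.83, 4.63 and 5.98 CPM in HFD Bcl2TG livers, against 7.82, 8.12, 6.59, 7.12 and 7.77 CPM in HFD WT livers (log2 fold change -0.64, SE 0.17, adjusted p = 0.0315). Chow libraries held 4.36, 4.09 and 4.83 CPM in Bcl2TG and 4.90, 3.41 and 3.82 CPM in WT, a log2 fold change of 0.88 for the diet in WT livers (SE 0.20, adjusted p = 0.00773). Foxm1 encodes the factor behind many mitotic genes. It was at 0.665, 0.874, 0.476, 0.509 and 1.29 CPM in HFD Bcl2TG livers, against 1.06, 0.799, 1.25, 1.62 and 2.23 CPM in HFD WT livers. Chow livers held 0.389, 0.434 and 0.525 CPM of Foxm1 in Bcl2TG and 0.411, 0.164 and 0.339 CPM in WT. The HFD genotypes overlapped, so that Foxm1 rose with the diet in WT livers (2.16, SE 0.45, adjusted p = 0.00417) but did not pass between the HFD genotypes (-0.87, adjusted p = 0.13).

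The mitosis genes rested on few reads in chow livers. Ccnb2, a B-type cyclin of the mitotic kinase, was at 0.532, 0.848, 0.476, 1.30 and 1.47 CPM in HFD Bcl2TG livers, against 2.69, 1.76, 1.70, 3.03 and 3.24 CPM in HFD WT livers. In chow livers Ccnb2 was at 0.506, 0.652 and 0.577 CPM in Bcl2TG and 0.651, 0.617 and 0.484 CPM in WT. Every HFD WT library lay above all libraries of the other 3 groups. The log2 fold change was -1.46 (SE 0.31, adjusted p = 0.0108) between the HFD genotypes and 2.07 (SE 0.39, adjusted p = 0.00227) for the diet in WT livers.

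Ccnb1, the other B-type cyclin, was at 0.505, 0.848, 0.0476, 0.74 and 0.874 CPM in HFD Bcl2TG livers, against 0.872, 1.16, 1.43, 1.41 and 2.09 CPM in HFD WT livers. The 3 Chow WT libraries held 2, 0 and 2 reads of it and the Chow Bcl2TG libraries 7, 4 and 6, so no fold is given for the diet in WT livers, where it passed as higher (adjusted p = 0.0015). Between the HFD genotypes it did not pass (-1.24, adjusted p = 0.133). Ccna2, cyclin A2 of S phase and early mitosis, was at 0.399, 1.41, 0.524, 1.71 and 1.79 CPM in HFD Bcl2TG livers, against 1.53, 2.1, 1.5, 1.62 and 3.38 CPM in HFD WT livers. In chow livers Ccna2 was at 0.273, 0.833 and 0.577 CPM in Bcl2TG livers and 0.274, 0.617 and 0.823 CPM in WT livers. HFD Bcl2TG libraries of Ccna2 thus fell on both sides of the lowest WT library, and it did not pass between the HFD genotypes (-0.82, adjusted p = 0.274), while it rose with the diet in WT livers (1.84, adjusted p = 0.0307).

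Of the checkpoint genes, Bub1b was lower in HFD Bcl2TG than in HFD WT livers. Bub1b, a kinase-like protein that holds back anaphase, was at 0.691, 0.668, 0.428, 0.833 and 0.782 CPM in HFD Bcl2TG livers, against 1.58, 1.36, 1.83, 2.34 and 1.58 CPM in HFD WT livers. In chow livers Bub1b was at 0.428, 0.29 and 1.05 CPM in Bcl2TG livers and 0.514, 0.164 and 0.581 CPM in WT livers. The HFD groups stood apart (-1.37, SE 0.34, adjusted p = 0.0219), and HFD Bcl2TG lay within the range of its chow group. Aurkb, the kinase of the chromosomal passenger complex, was at 0.186, 0.514, 0.381, 0.37 and 0.782 CPM in HFD Bcl2TG livers, against 0.919, 0.832, 1.11, 1.53 and 1.33 CPM in HFD WT livers, with 0 to 8 reads in every chow library. The HFD groups did not overlap, but Aurkb just missed the threshold between them (-1.38, adjusted p = 0.0614). Cdc20, which activates the anaphase-promoting complex, was at 0.691, 1.52, 0.643, 1.94 and 2.48 CPM in HFD Bcl2TG livers, against 1.63, 3.69, 1.49, 3.67 and 4.43 CPM in HFD WT livers. Chow livers held 0.545, 0.507 and 0.84 CPM of Cdc20 in Bcl2TG and 0.617, 0.247 and 0.533 CPM in WT. Both HFD groups spread widely, and Cdc20 was 2.65 for the diet in WT livers (SE 0.54, adjusted p = 0.00394) and -1.05 between the HFD genotypes (adjusted p = 0.13). Aurka and Birc5 passed in neither comparison, with log2 fold changes of 0.10 and -0.03 between the HFD genotypes and -0.14 and 0.68 for the diet in WT livers, none past the test.

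Top2a and Mki67, which act on the chromosomes themselves, gave the clearest diet contrast of mitosis. Top2a, the topoisomerase that untangles replicated chromosomes (ENSMUSG00000020914, chromosome 11 of GRCm38, 98992943 to 99024189), was at 1.01, 2.08, 1.14, 1.67 and 2.44 CPM in HFD Bcl2TG livers, against 3.49, 3.53, 4.17, 5.63 and 4.75 CPM in HFD WT livers. Chow Bcl2TG livers were at 0.623, 0.833 and 0.892 CPM and Chow WT livers at 0.651, 0.658 and 1.21 CPM. The 3 levels did not overlap between HFD WT, HFD Bcl2TG and Chow Bcl2TG. On the log2 scale the fold change was -1.38 (SE 0.26, adjusted p = 0.00496) between the HFD genotypes and 2.37 (SE 0.34, adjusted p = 0.000245) for the diet in WT livers, and 1.08 (adjusted p = 0.104) for the diet in Bcl2TG livers. Mki67, which encodes the Ki-67 coat protein of mitotic chromosomes, was at 1.81, 4.19, 2.19, 3.24 and 2.76 CPM in HFD Bcl2TG livers, against 3.86, 4.33, 5.03, 9 and 7.56 CPM in HFD WT livers. Here 1 HFD Bcl2TG library overlapped the WT range, and both differed from chow, where Mki67 was at 0.781 to 1.16 CPM. Its log2 fold change was -1.06 (SE 0.26, adjusted p = 0.0227) between the HFD genotypes, 1.49 (SE 0.35, adjusted p = 0.0282) for the diet in Bcl2TG livers and 2.55 (SE 0.35, adjusted p = 0.000211) for the diet in WT livers.

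Of the kinetochore and spindle genes, Tpx2, an activator of Aurora A on the spindle, was higher with the diet in both genotypes. Tpx2 was at 0.771, 1.31, 0.714, 1.02 and 1.06 CPM in HFD Bcl2TG livers, against 1.51, 1.33, 1.90, 2.17 and 1.87 CPM in HFD WT livers. It was at 0.273, 0.145 and 0.157 CPM in Chow Bcl2TG livers and 0.411, 0.288 and 0.0484 CPM in Chow WT livers. All HFD libraries exceeded all chow libraries, on 1 to 12 reads in the chow libraries. This gave a log2 fold change of 2.31 (SE 0.45, adjusted p = 0.0109) for the diet in Bcl2TG livers, 2.73 (SE 0.42, adjusted p = 0.000526) in WT livers and -0.85 (adjusted p = 0.104) between the HFD genotypes. Cenpe, a kinetochore motor, was at 0.399, 0.668, 0.548, 0.694 and 0.414 CPM in HFD Bcl2TG livers, against 1.18, 0.899, 0.752, 2 and 1.19 CPM in HFD WT livers. It stood on 6, 2 and 1 reads in the Chow Bcl2TG libraries and on 3, 0 and 1 reads in the Chow WT libraries. The HFD groups did not overlap, without passing the test (-1.12, adjusted p = 0.0767).

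Kif11, the motor that pushes the spindle poles apart, was at 1.17, 1.18, 0.952, 1.39 and 1.01 CPM in HFD Bcl2TG livers, against 1.84, 1.2, 2.19, 2.05 and 2.2 CPM in HFD WT livers. In chow livers Kif11 was at 1.25, 1.23 and 1.21 CPM in Bcl2TG livers and 0.823, 0.863 and 0.629 CPM in WT livers. HFD WT replicate 2 was the library that overlapped HFD Bcl2TG. Kif11 was lower in HFD Bcl2TG than in HFD WT livers (-0.73, SE 0.21, adjusted p = 0.0434) and higher in HFD WT than in Chow WT livers (1.28, adjusted p = 0.00343). Cenpf, a large kinetochore protein, was at 0.426, 1.18, 0.357, 0.324 and 0.552 CPM in HFD Bcl2TG livers, against 1.08, 1.26, 1.13, 2.47 and 2.23 CPM in HFD WT livers. Replicate 2 was the only HFD Bcl2TG library above the lowest WT library, and Cenpf rose with the diet in WT livers (3.04, adjusted p = 0.00406), where Chow WT held 5, 1 and 8 reads. Hmmr, a spindle protein and hyaluronan receptor, was at 0.372, 0.874, 0.286, 0.694 and 0.598 CPM in HFD Bcl2TG livers, against 1.01, 0.599, 0.86, 1.66 and 1.51 CPM in HFD WT livers (-1.0, adjusted p = 0.129), and rose with the diet in WT livers (2.67, adjusted p = 0.00347). Nusap1, which binds spindle microtubules near chromosomes, was at 0.771, 1.47, 0.738, 1.39 and 1.52 CPM in HFD Bcl2TG livers, against 1.81, 0.998, 2.26, 1.88 and 1.91 CPM in HFD WT livers, and passed in neither comparison (0.92, adjusted p = 0.116, for the diet in WT livers).

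At the last step of division, Ect2 and Anln were lower in HFD Bcl2TG livers. Ect2 activates RhoA at the cleavage furrow, and was at 1.01, 1.36, 1.10, 1.62 and 1.47 CPM in HFD Bcl2TG livers, against 2.62, 1.76, 3.17, 2.69 and 3.35 CPM in HFD WT livers. On chow it was at 1.48, 1.01 and 1.78 CPM in Bcl2TG livers and 1.71, 1.15 and 0.533 CPM in WT livers. HFD Bcl2TG livers were within the chow range, and the HFD genotypes did not overlap (log2 fold change -1.06, SE 0.27, adjusted p = 0.0277). Anln, the scaffold of the contractile ring, was at 0.479, 0.874, 0.69, 0.879 and 0.644 CPM in HFD Bcl2TG livers, against 1.51, 0.899, 1.59, 1.71 and 1.8 CPM in HFD WT livers. In chow livers Anln was at 0.662, 0.362 and 0.21 CPM in Bcl2TG livers and 0.446, 0.535 and 0.775 CPM in WT livers. HFD WT replicate 2 came close to the highest HFD Bcl2TG libraries without reaching them (-1.07, SE 0.29, adjusted p = 0.0348).

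Kif23 and Racgap1 are partners in the centralspindlin complex of the midzone. Kif23 was at 0.745, 0.746, 1.12, 0.648 and 0.92 CPM in HFD Bcl2TG livers, against 1.13, 1.43, 1.81, 1.49 and 1.19 CPM in HFD WT livers, and at 0.584, 0.326 and 0.525 CPM in Chow Bcl2TG and 0.308, 0.206 and 0.581 CPM in Chow WT livers. Racgap1 was at 0.798, 1.44, 0.571, 0.879 and 0.92 CPM in HFD Bcl2TG livers, against 1.44, 1.03, 2.17, 3.62 and 2.48 CPM in HFD WT livers, and on 25, 1 and 3 reads in the Chow WT libraries. Both passed for the diet in WT livers, at 1.97 (adjusted p = 0.00157) for Kif23 and 2.52 (adjusted p = 0.0108) for Racgap1, and neither between the HFD genotypes (adjusted p = 0.106 and 0.128). Prc1, which bundles midzone microtubules, was at 0.851, 1, 0.286, 0.555 and 1.1 CPM in HFD Bcl2TG livers, against 1.55, 1.13, 1.5, 1.88 and 1.84 CPM in HFD WT livers, and at 0.72, 0.206 and 0.968 CPM in Chow WT livers. It did not pass for the diet in WT livers (1.33, adjusted p = 0.0722) although HFD WT and Chow WT did not overlap. Kif20a, a kinesin of the midzone with 29.3% of its exon bases over another gene, was at 0.612, 1.26, 0.333, 0.463 and 0.828 CPM in HFD Bcl2TG livers, against 1.23, 0.632, 1.47, 2.73 and 1.94 CPM in HFD WT livers, and at 0.72, 0.452 and 0.484 CPM in Chow WT livers. It passed for the diet (1.5, adjusted p = 0.0404) although HFD WT and Chow WT did overlap.

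The diet in Bcl2TG livers moved fewer members past the test. Only Mcm3, Mcm6, Mki67 and Tpx2 of 42 were higher in HFD Bcl2TG than in Chow Bcl2TG livers and none lower, while 2.58% of all genes passed (1.32% higher and 1.26% lower), and the median was 0.60 over the members and 0.03 over all genes. This count was 0 without Chow Bcl2TG replicate 2 (0.797% of all genes) or 3 (1.27%). It was 1 without Chow Bcl2TG replicate 1 (0.845%) or HFD Bcl2TG replicate 2 (2.14%), and 7 with DESeq2 or limma-voom. The 2 diet contrasts were compared directly by the interaction of diet and genotype. Of 42 interaction terms 35 were negative, with a median of -0.96, and 1 passed (0.485% of all genes did): Tk1, at 1.52 (SE 0.32, adjusted p = 0.0463). That call was lost in 14 of 24 alternatives, 11 of which left out 1 library, and its adjusted p over all 24 ran from 0.00157 to 0.142. Next came Ccnd1 (-1.85, adjusted p = 0.0818), Kif11 (-1.40, adjusted p = 0.089) and Cdc45 (-1.63, adjusted p = 0.0957). For the other 41 members a difference between the diet responses was therefore not shown. Of the 42, 21 had an unadjusted p under 0.05 with edgeR, as did 2145 of all 14436 genes. DESeq2 called 5 of the 42 and limma-voom 6. On chow the genotypes did not separate: 0 of 42 members passed with edgeR (0.152% of all genes, 0.104% higher and 0.0485% lower). On chow 3 members had an unadjusted p under 0.05, as did 1068 of all 14436 genes. DESeq2 called 0 and limma-voom 1 of the members, and the median was -0.01.

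In the S100a8 experiment the diet raised the same kind of genes in control livers. Of the 34 listed members, 25 were higher and 2, Tk1 and Mcm10, lower in HFD S100a8f/f than in Chow S100a8f/f livers, while 27.5% of all 13817 genes passed (14.5% higher and 13% lower). The median log2 fold change was 1.74 over the members and -0.01 over all genes. By role, 9 of 10 genes of origin licensing and the helicase were higher (median 2.16), 1 of 4 of the clamp and nucleotide supply, all 3 of G1 and 12 of 17 of mitosis (median 1.76). No library is shared with the Bcl2TG experiment. Of the 34 members in both tables, 20 were higher with the diet in both control genotypes, which is 20 of the 23 that were higher in WT livers and 20 of the 25 that were higher in S100a8f/f livers, and Tk1 was lower in both. Of all genes 8.4% were higher with the diet in WT livers and 14.5% in S100a8f/f livers. The share of all genes higher in both was not taken, and members may be listed in both through their HFD level, so the 20 are a description.

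**Figure D3:**
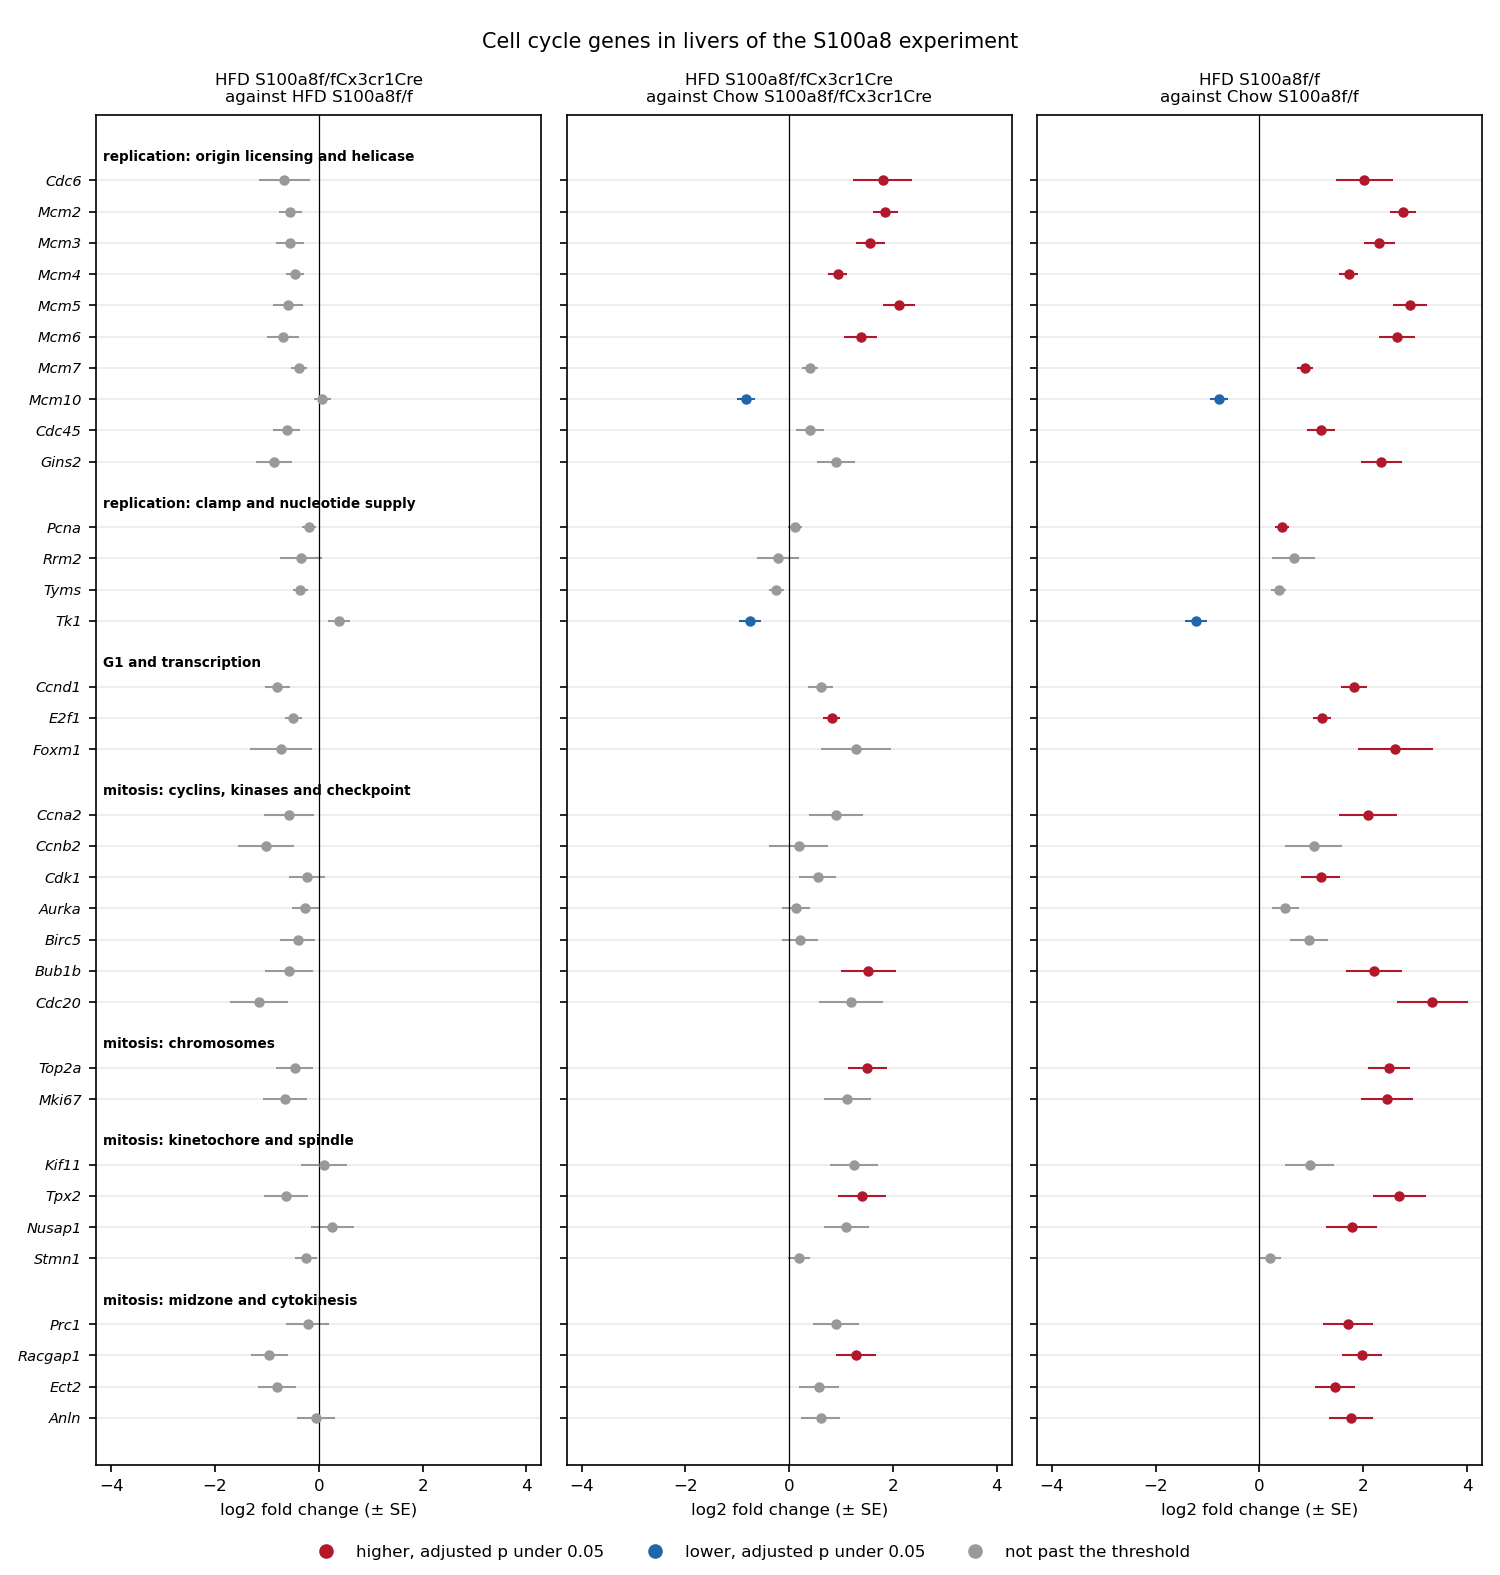
Log2 fold changes of the 34 listed members in the S100a8 experiment, ordered by role, for HFD S100a8f/fCx3cr1Cre against HFD S100a8f/f, HFD S100a8f/fCx3cr1Cre against Chow S100a8f/fCx3cr1Cre and HFD S100a8f/f against Chow S100a8f/f. Points are edgeR estimates, bars 1 standard error, red and blue mark members that passed as higher or lower and grey those that did not; no member passed in the first panel, 11 were higher and 2 lower in the second, and 25 higher and 2 lower in the third.

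The helicase subunits led the diet response of this cohort. Mcm2 was at 8.22, 12.9, 14.1 and 11.4 CPM in HFD S100a8f/fCx3cr1Cre livers, against 20.4, 13.9, 14.9, 11.8 and 24.6 CPM in HFD S100a8f/f livers. On chow Mcm2 was at 2.94, 3.29, 2.20, 3.95 and 3.75 CPM in S100a8f/fCx3cr1Cre livers and 2.94, 2.55, 3.03 and 1.60 CPM in S100a8f/f livers. The diets did not overlap in either genotype, and the genotypes overlapped on both diets. The log2 fold change was 1.86 (SE 0.23, adjusted p = 1.18e-05) for the diet in S100a8f/fCx3cr1Cre livers, 2.76 (SE 0.25, adjusted p = 4.56e-07) for the diet in S100a8f/f livers and -0.55 (SE 0.22, adjusted p = 0.468) between the HFD genotypes. For Mcm6 the HFD libraries held 8.93, 14.4, 17.9 and 10.9 CPM in S100a8f/fCx3cr1Cre, against 21.7, 13.6, 15.5, 12.8 and 41.4 CPM in S100a8f/f, where replicate 5 stood apart. On chow Mcm6 was at 3.33, 6.46, 4.2, 5.95 and 5.11 CPM in S100a8f/fCx3cr1Cre and 4.41, 2.77, 3.76 and 2.39 CPM in S100a8f/f livers. It passed for the diet in both genotypes, at 1.38 (adjusted p = 0.00279) in S100a8f/fCx3cr1Cre and 2.65 (adjusted p = 1.95e-05) in S100a8f/f livers.

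The other subunits of the ring were also higher on HFD in both genotypes, apart from Mcm7 in S100a8f/fCx3cr1Cre livers. Mcm5 was at 5.13, 9.46, 11.2 and 6.15 CPM in HFD S100a8f/fCx3cr1Cre livers, against 13.2, 8.31, 8.18, 9.2 and 21.3 CPM in HFD S100a8f/f livers, and between 1.33 and 2.95 CPM in every chow library. Its log2 fold change for the diet was 2.12 (adjusted p = 5.1e-05) in S100a8f/fCx3cr1Cre livers and 2.91 (adjusted p = 4.7e-06) in S100a8f/f livers. Mcm3 was at 7.72, 12.8, 13 and 8.5 CPM in HFD S100a8f/fCx3cr1Cre livers, against 16.8, 14.3, 10.9, 10.9 and 24.8 CPM in HFD S100a8f/f livers, and between 1.89 and 4.67 CPM in every chow library. Diet and not genotype separated the libraries of these genes. Mcm4 was at 6.09, 9.62, 9.56 and 8.11 CPM in HFD S100a8f/fCx3cr1Cre livers, against 10.7, 10.9, 10.2, 9.12 and 16.5 CPM in HFD S100a8f/f livers, with 2.91 to 4.95 CPM on chow. Gins2 was at 1.13, 2.58, 1.51 and 0.896 CPM in HFD S100a8f/fCx3cr1Cre livers, against 2.98, 2.49, 2.37, 2.01 and 4.14 CPM in HFD S100a8f/f livers, with 0.293 to 1.1 CPM on chow. Of these genes Gins2 did not pass in S100a8f/fCx3cr1Cre livers (0.90, adjusted p = 0.0731). Mcm3 (1.56, adjusted p = 0.000435), Mcm4 (0.93, adjusted p = 0.000629) and Cdc6 (1.8, adjusted p = 0.0213) were higher with the diet in S100a8f/fCx3cr1Cre livers as they were in S100a8f/f livers, and Mcm7 (0.88, adjusted p = 0.00043), Cdc45 (1.18, adjusted p = 0.00355), Gins2 (2.35, adjusted p = 0.000266) and Pcna (0.44, adjusted p = 0.0271) passed in S100a8f/f livers alone, a difference that was not past the test for any of them as an interaction.

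Mcm10 and Tk1 went the other way. Mcm10 was at 108, 89.7, 90.1 and 90.1 CPM in HFD S100a8f/fCx3cr1Cre livers, against 73.7, 109.6, 99.2, 94.6 and 74.0 CPM in HFD S100a8f/f livers. On chow it was at 125, 122, 196, 212 and 181 CPM in S100a8f/fCx3cr1Cre livers and 166, 194, 125 and 136 CPM in S100a8f/f livers. Every HFD library lay below every chow library, with log2 fold changes of -0.82 (SE 0.17, adjusted p = 0.00156) in S100a8f/fCx3cr1Cre livers and -0.78 (SE 0.17, adjusted p = 0.00237) in S100a8f/f livers. Tk1 was at 17.4, 25.4, 20.9 and 26.3 CPM in HFD S100a8f/fCx3cr1Cre livers, against 12.9, 19.2, 12.1, 12.7 and 29.2 CPM in HFD S100a8f/f livers. On chow it was at 34.9, 42.7, 36.6, 39.5 and 37.1 CPM in S100a8f/fCx3cr1Cre livers and 45.2, 46.0, 30.8 and 38.3 CPM in S100a8f/f livers. Again the chow libraries were the high ones, with log2 fold changes of -0.76 (SE 0.21, adjusted p = 0.0106) and -1.22 (SE 0.21, adjusted p = 0.000329) in the same order of genotypes. Per kilobase of exon, Mcm10 was at 11.7 CPM and Mcm3 at 4.14 CPM in HFD S100a8f/f livers.

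Cyclin D1 and E2F1 were the members that came nearest to a genotype difference on HFD in this cohort. Ccnd1 was at 17.4, 15.1, 20.8 and 17.2 CPM in HFD S100a8f/fCx3cr1Cre livers, against 29.9, 28.0, 34.7, 31.1 and 30.0 CPM in HFD S100a8f/f livers. On chow it was at 14.9, 15.1, 10.4, 8.84 and 8.32 CPM in S100a8f/fCx3cr1Cre livers and 5.20, 4.66, 11 and 13.7 CPM in S100a8f/f livers. The HFD genotypes did not overlap, yet the log2 fold change of -0.80 (SE 0.24) did not pass (adjusted p = 0.216). E2f1 was at 8.76, 8.94, 7.23 and 8.54 CPM in HFD S100a8f/fCx3cr1Cre livers, against 13.2, 10.2, 10.4, 9.12 and 16 CPM in HFD S100a8f/f livers, also without overlap and not past the test (-0.49, SE 0.16, adjusted p = 0.281). For the diet, Ccnd1 was 1.82 in S100a8f/f livers (adjusted p = 4.63e-05), and E2f1 was 0.82 (adjusted p = 0.0012) in S100a8f/fCx3cr1Cre and 1.20 (adjusted p = 4.83e-05) in S100a8f/f livers.

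**Figure D4:**
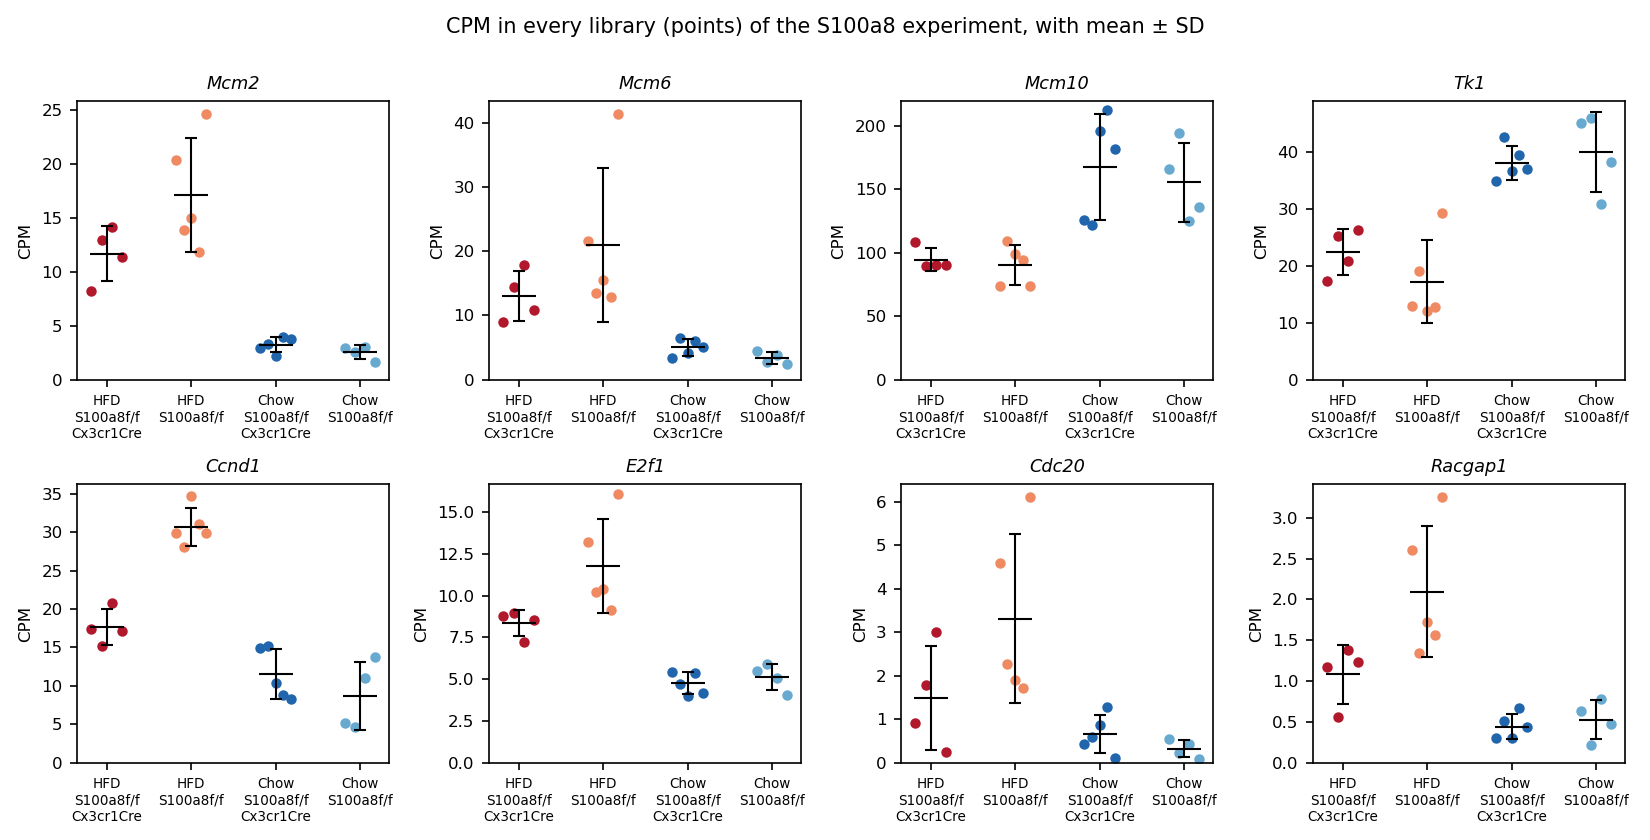
CPM of 8 members in each library of the S100a8 experiment, with HFD S100a8f/fCx3cr1Cre, HFD S100a8f/f, Chow S100a8f/fCx3cr1Cre and Chow S100a8f/f along the horizontal axis and bars for the mean and SD. Mcm2 and Mcm6 are high in both HFD groups, Mcm10 and Tk1 are high in both chow groups, and replicate 5 of HFD S100a8f/f is the highest library for Mcm6 at 41.4 CPM.

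The mitosis genes of this cohort varied most within HFD S100a8f/f livers. Cdc20 was at 0.918, 1.79, 3.01 and 0.256 CPM in HFD S100a8f/fCx3cr1Cre livers, against 4.59, 2.26, 1.89, 1.73 and 6.10 CPM in HFD S100a8f/f livers, while the chow libraries held 0.109 to 1.28 CPM in S100a8f/fCx3cr1Cre and 0.0939 to 0.539 CPM in S100a8f/f. On the log2 scale the fold change was 3.33 (SE 0.68, adjusted p = 0.00148) for the diet in S100a8f/f livers and -1.15 (SE 0.56, adjusted p = 0.668) between the HFD genotypes. Racgap1 was at 1.17, 0.556, 1.38 and 1.24 CPM in HFD S100a8f/fCx3cr1Cre livers, against 2.61, 1.34, 1.72, 1.56 and 3.26 CPM in HFD S100a8f/f livers. It passed for the diet in both genotypes (1.29, adjusted p = 0.0173, in S100a8f/fCx3cr1Cre and 1.97, adjusted p = 0.000978, in S100a8f/f livers). Top2a was at 1.96 to 3.66 CPM in HFD S100a8f/fCx3cr1Cre livers, 2.11 to 7.39 CPM in HFD S100a8f/f livers and at most 1.36 CPM in any chow library, with 1.5 (adjusted p = 0.00541) and 2.50 (adjusted p = 0.000197) for the diet in the same order. Bub1b and Tpx2 passed in both genotypes as well. Mki67 was at 1.42, 2.15, 2.28 and 2.01 CPM in HFD S100a8f/fCx3cr1Cre livers, against 4.26, 0.785, 1.68, 2.67 and 6.02 CPM in HFD S100a8f/f livers, with 0.222 to 1.31 CPM on chow. It passed in S100a8f/f livers (2.46, adjusted p = 0.00127), where the 5 libraries ran from chow level to the highest of the cohort. Ccnb2 passed in neither genotype of this experiment (1.05, adjusted p = 0.16, in S100a8f/f livers), with 0.517 to 3.81 CPM in HFD S100a8f/f and 0.282 to 1.61 CPM in Chow S100a8f/f livers. HFD S100a8f/f replicate 5 was the highest of its group for 27 of 34 members, and without it 25 members passed for the diet in S100a8f/f livers.

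Between the S100a8 genotypes no member passed. On HFD 0 of 34 passed with edgeR (0.883% of all genes did, 0.854% higher and 0.0289% lower). Of the 34, 12 had an unadjusted p under 0.05, as did 1069 of all 13817 genes, and DESeq2 called 0 and limma-voom 1. The median was -0.52 with 30 of 34 fold changes negative, and it was -0.28 without HFD S100a8f/f replicate 5. On chow 0 of 34 passed (0% of all genes) and 1 had an unadjusted p under 0.05, as did 775 of all 13817 genes. DESeq2 and limma-voom called 0 each on chow, and the median was 0.29 with 27 fold changes positive. The diet in S100a8f/fCx3cr1Cre livers raised 11 of 34 members and lowered Tk1 and Mcm10, while 28.9% of all genes passed (16.1% higher and 12.8% lower), with a median of 0.90. The share of members called was thus 13 of 34 against 28.9% of all genes, nearer to the background than in S100a8f/f livers, where it was 27 of 34 against 27.5%. The interaction was past the test for 0 of 34 members (0.13% of all genes). Its unadjusted p was under 0.05 for 8 members and for 879 of all 13817 genes. None of the members was called by DESeq2 or limma-voom, and the median was -0.78. The diet contrasts and the genotype contrasts share their libraries with the interaction, so these values are not independent of each other.

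Setting replication against mitosis, the mean log2 CPM of the listed members of each class was taken in every library. This level is a description and carries no test, and since the genes differ in length only its change between groups is read. The replication level was 2.31 ± 0.19 in HFD Bcl2TG and 2.81 ± 0.16 in HFD WT livers (SD, n = 5 each), and 2.08 ± 0.14 in Chow Bcl2TG and 2.07 ± 0.09 in Chow WT livers (SD, n = 3 each). The mitosis level was 0.10 ± 0.41 in HFD Bcl2TG, 1.03 ± 0.33 in HFD WT, -0.71 ± 0.07 in Chow Bcl2TG and -0.87 ± 0.34 in Chow WT livers. Between HFD WT and Chow WT livers the mitosis level differed by 1.91 and the replication level by 0.74, and between HFD Bcl2TG and HFD WT livers the differences were -0.93 and -0.50 in the same order of classes. Mitosis members such as Ccnb1 and Cenpe, with 0 to 3 reads in Chow WT libraries, enter that level and may be listed only through their HFD counts. With members of at least 1 CPM on average, 13 of mitosis and 12 of replication, the differences were 1.53 and 0.61 for the diet in WT livers and -0.82 and -0.27 between the HFD genotypes. That average runs over all libraries, HFD included, so it can also admit a member through its HFD level. The replication level minus the mitosis level was smallest in HFD WT livers (1.78 ± 0.19), then HFD Bcl2TG (2.21 ± 0.31), Chow Bcl2TG (2.79 ± 0.07) and Chow WT livers (2.94 ± 0.34), and the libraries of HFD WT and Chow WT did not overlap. This value holds all listed members, those that may be listed only through their HFD counts included, and was not redone without them. Its order over the groups is therefore not read as a difference between the classes.

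In the S100a8 experiment both levels were higher on HFD in either genotype. The replication level was 3.19 ± 0.27 in HFD S100a8f/fCx3cr1Cre (SD, n = 4), 3.56 ± 0.40 in HFD S100a8f/f (n = 5), 2.55 ± 0.13 in Chow S100a8f/fCx3cr1Cre (n = 5) and 2.33 ± 0.12 in Chow S100a8f/f livers (n = 4). The mitosis level was 0.81 ± 0.39, 1.20 ± 0.61, 0.02 ± 0.10 and -0.33 ± 0.45 in the same order of groups. Replication minus mitosis was 2.38 ± 0.14, 2.36 ± 0.31, 2.52 ± 0.19 and 2.66 ± 0.39, and all 4 groups overlapped. As differences of group means over all listed members, replication rose by 1.23 and mitosis by 1.53 between HFD S100a8f/f and Chow S100a8f/f livers. With members of at least 1 CPM on average, 13 of replication and 11 of mitosis, the differences were 1.185 and 1.373. In both versions a member can be admitted through its HFD level, so neither class is read against the other. Only 17 mitosis members are listed in this experiment against 25 in the other, so the mitosis levels of the 2 experiments are not of the same genes.

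**Figure D5:**
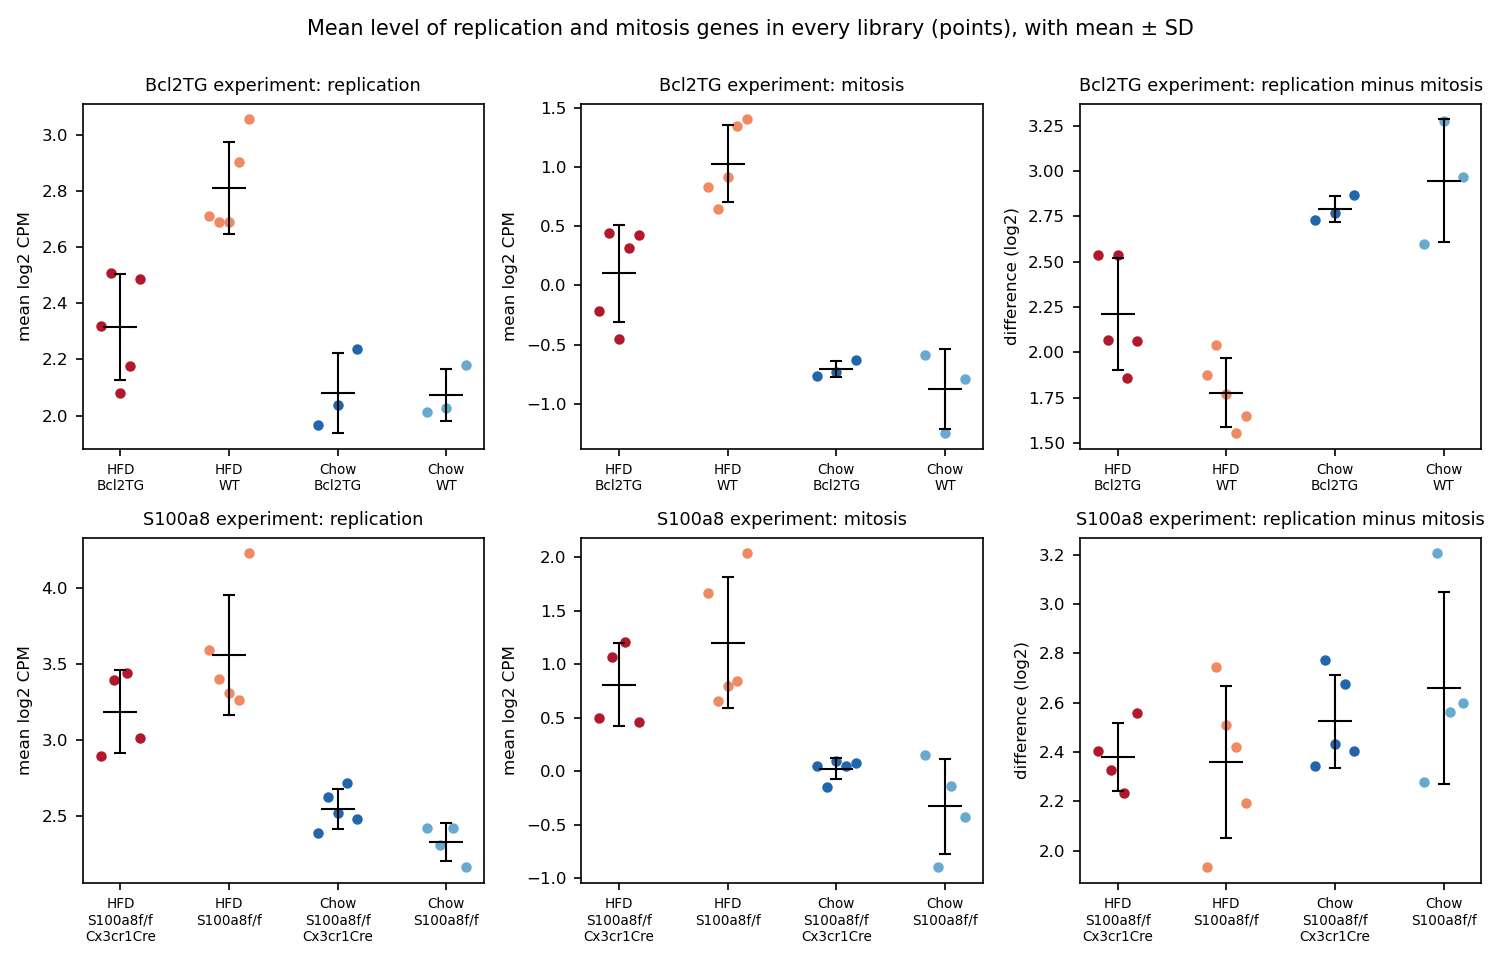
Mean log2 CPM of the listed replication members, of the listed mitosis members and their difference in each library, with the Bcl2TG experiment in the upper row and the S100a8 experiment in the lower row; points are libraries and bars the group mean and SD. HFD WT has the highest mitosis level of its experiment (1.03 ± 0.33) and the smallest difference (1.78 ± 0.19), and in the S100a8 experiment the difference overlaps between all 4 groups. Some mitosis members may be listed only through their HFD counts.

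Other genes of the same pathways were taken from lists of replication, mitosis, G1 and inhibitor genes outside the 45. Of all genes, 2.42% were higher and 4.29% lower between HFD Bcl2TG and HFD WT livers. The shares were 8.4% higher and 6.98% lower between HFD WT and Chow WT livers. For HFD S100a8f/f against Chow S100a8f/f livers they were 14.5% higher and 13% lower. Between HFD Bcl2TG and HFD WT livers 7 of 35 other replication genes were lower (median -0.23), among them Chaf1a (-1.24, adjusted p = 0.0114), a subunit of the chromatin assembly factor that follows the fork, and Uhrf1 (-1.78, adjusted p = 0.0172), which carries DNA methylation through replication. Of 34 other mitosis genes 5 were lower (median -0.49), led by Ckap2 (-1.63, adjusted p = 0.00402). Of 18 other G1 cyclins, kinases and E2F factors 1, E2f5, was higher (0.48, adjusted p = 0.0499) and none lower (median -0.18). Of 18 cell cycle brakes 4 were lower, with Cdkn1a, the p21 inhibitor of cyclin-dependent kinases, at -2.01 (SE 0.39, adjusted p = 0.00678). Between HFD WT and Chow WT livers 12 of 35 other replication genes were higher, of 34 other mitosis genes 20 were higher and 2 lower, and of 18 other G1 genes 2 were higher. Between HFD S100a8f/f and Chow S100a8f/f livers 13 of 34 other replication and 12 of 24 other mitosis genes were higher, 4 of 18 other G1 genes were higher and 1 lower, and Cdkn1a was higher at 3.28 (SE 0.43, adjusted p = 2.19e-05). Cdkn1a did not pass for the diet in WT livers of the Bcl2TG experiment (0.25, adjusted p = 0.743). None of these 4 lists held a call between HFD S100a8f/fCx3cr1Cre and HFD S100a8f/f livers. Between Chow Bcl2TG and Chow WT livers 1 of 18 other G1 genes was higher (0.104% of all genes) and 1 of 18 brakes lower (0.0485%). In the interaction of the Bcl2TG experiment 2 of 18 other G1 genes were lower (0.256% of all genes).

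Markers of other liver cells moved with the same comparisons. Of all genes 2.42% were higher and 4.29% lower between HFD Bcl2TG and HFD WT livers, and 8.4% and 6.98% between HFD WT and Chow WT livers. For HFD S100a8f/f against Chow S100a8f/f livers 14.5% were higher, and for HFD S100a8f/fCx3cr1Cre against HFD S100a8f/f livers 0.854%. Between HFD Bcl2TG and HFD WT livers 4 of 10 stellate cell and fibroblast markers were lower, with sums of 243 to 358 CPM in HFD Bcl2TG livers against 502 to 653 CPM in HFD WT livers. Of 14 macrophage and Kupffer cell markers 3 were lower, with sums of 216 to 576 CPM in HFD Bcl2TG and 290.2 to 502 CPM in HFD WT livers. Of the adipocyte markers Adipoq, Plin1, Lep and Retn were not listed in the Bcl2TG table. Of the 5 listed (Cidec, Cfd, Fabp4, Pparg and Lipe) 3 were lower (median -1.19), with sums of 33.8 to 114 CPM in HFD Bcl2TG and 102 to 180 CPM in HFD WT livers. The paper counts Pparg, Cidec and Fabp4 among the PPARγ target genes of the liver, so sums of this list do not mark adipocytes alone. Of 10 endothelial markers 2 were lower, with sums of 157 to 295 CPM in HFD Bcl2TG and 262 to 311 CPM in HFD WT livers. Between HFD WT and Chow WT livers 11 of 14 macrophage markers (174 to 202 CPM on chow) and 5 of 10 stellate markers (238 to 352 CPM on chow) were higher and 3 of 9 hepatocyte markers lower. Between HFD S100a8f/f and Chow S100a8f/f livers all 10 stellate markers (386 to 685 CPM against 100.8 to 165 CPM) 6 of 14 macrophage markers and 8 of 10 endothelial markers were higher, the last with sums of 166 to 247 CPM against 83.6 to 161 CPM. Between HFD S100a8f/fCx3cr1Cre and HFD S100a8f/f livers 5 of 7 smooth muscle markers were higher (239 to 265 CPM against 85.7 to 121 CPM), as were 3 of 7 adipocyte markers (256 to 410 CPM against 198 to 289 CPM). Of 10 neutrophil markers 3 were listed in the Bcl2TG table, with Ly6g, Mpo, Elane, Camp and Ngp among those not listed. None of the 3 passed between the HFD genotypes. Of 13 T and NK cell markers 4 were listed, without Cd3e, Cd3d and Cd8a, and 1 was higher in HFD Bcl2TG than in HFD WT livers. With the diet, 1 of the 3 neutrophil markers was higher in WT livers, and both of the 2 listed in the S100a8 table were higher in S100a8f/f livers. That table listed no T and NK cell marker. Clock genes moved with the diet in WT livers, where 4 were higher and 4 lower of 15, with Dbp at 5.20 (adjusted p = 5.48e-05). In Bcl2TG livers 4 of 15 were higher with the diet and 2 lower (1.32% and 1.26% of all genes). In S100a8f/f livers 0 of 14 were higher and 4 lower (14.5% and 13%), and in S100a8f/fCx3cr1Cre livers 1 was higher and 3 lower (16.1% and 12.8%). Between HFD Bcl2TG and HFD WT livers 1 of 15 clock genes was higher. The part of these cells, of the time of day and of the depth of the libraries in the values of the members was not tested.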

How the data were processed

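Whole livers were profiled by RNA sequencing. RNA was prepared by the authors with TRIzol and poly(A) selection and read on an Illumina HiSeq. Reads passed through FastQC and Trimmomatic, HISAT2 alignment on GRCm38, SAMtools and featureCounts. The versions, the annotation release and the strand setting are not given in the sources used here. The deposited tables hold raw counts per gene and library, beside the authors' own DESeq2 comparison columns (mean, fold change, error, p and rank), which were not used. An Ensembl gene repeated for several Entrez genes was kept once, leaving 14436 of 14628 and 13817 of 14030 entries. Depth was 18628257 to 52395073 counts per library, and members at a few reads are imprecise.

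Counts were analysed with edgeR 4.0.16 in R 4.3.3 (TMM scaling, quasi-likelihood fit of 4 group means per experiment, Benjamini-Hochberg adjustment over all genes, threshold 0.05). The filter on low counts removed no gene. Levels are CPM; a prior count of 2 was added before taking log2. Values per library were given for members that passed in at least 1 of the 10 contrasts, smallest p first, at most 6 in each of 7 role groups. The members, lists and tests were chosen with earlier results of these data known. Gene positions came from GENCODE M21. The fit was also run on simulated data, and the outcome of that run is not given here.

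Alternatives were DESeq2 1.42.0, limma-voom (limma 3.58.1), RLE size factors, no filter or a stricter one, a fit of the 2 groups alone, a block for the replicate number, and leaving out each library. Leaving out HFD WT libraries 4 and 5, keeping HFD libraries 1 to 3, class levels without each library, and class values over members with a mean of at least 1 CPM were chosen after seeing the data. Figures were drawn with matplotlib 3.10.9 in Python 3.11.15 (NumPy 2.4.6, pandas 2.3.3).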

Additional observations from a re-analysis of the deposited data

Results flagged for a closer look

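In 7 of 176 groups of 4 or 5 libraries the highest or lowest library stood far from the others by Dixon's criterion, which chance alone meets in about 1 group in 20. Cenpf was at 1.18 CPM in HFD Bcl2TG replicate 2, against 0.324 to 0.552 CPM in the other replicates. Mcm4 was at 16.5 CPM (others 9.12 to 10.9 CPM) and Foxm1 at 2.67 CPM (others 0.646 to 1.19 CPM) in HFD S100a8f/f replicate 5. In Chow S100a8f/fCx3cr1Cre livers Mcm5 was at 2.95 CPM in replicate 2 (others 1.33 to 1.69 CPM), Kif11 at 1.58 CPM in replicate 5 (others 0.334 to 0.692 CPM), and the mean log2 CPM of the mitosis members at -0.144 in replicate 2 (others 0.0462 to 0.0911). Pcna was at 39.1 CPM in Chow S100a8f/f replicate 1 (others 30.6 to 31.1 CPM).

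For Tk1 the interaction of diet and genotype in the Bcl2TG experiment just passed, with a log2 fold change of 1.52 (edgeR, adjusted p = 0.0463). This call was lost in 14 of 24 alternatives, 11 of which left out 1 library, and its adjusted p ran from 0.00157 to 0.142.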

How the results depend on the processing

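No call of a member turned round under any alternative run. Over the 91 calls of members, DESeq2 kept 91, limma-voom 85, RLE size factors 90, no filter 91 and the stricter filter 91, the fit of only the 2 groups compared kept 79 of 89, and the replicate block kept 73. Between HFD Bcl2TG and HFD WT livers the 15 members called became 25 with DESeq2, 28 with limma-voom, 8 with the replicate block, 3 without HFD WT libraries 4 and 5 together (1.02% of all genes then passed) and 2 among HFD libraries 1 to 3, and 8 to 21 with each library left out. For HFD Bcl2TG against Chow Bcl2TG the 4 became 7 with DESeq2, 7 with limma-voom, 2 with only the 2 groups compared, 2 with the replicate block, 2 among HFD libraries 1 to 3 and 0 to 6 with each library left out. For the interaction of the Bcl2TG experiment the 1 became 5 with DESeq2, 6 with limma-voom, 0 with the replicate block, 0 without HFD WT libraries 4 and 5, 0 among HFD libraries 1 to 3 and 0 to 3 with each library left out. For HFD S100a8f/fCx3cr1Cre against HFD S100a8f/f the 0 became 1 when the 2 groups were fitted alone, 1 with limma-voom, and for Chow Bcl2TG against Chow WT the 0 became 1 with limma-voom. The share of all genes called changed too when libraries were left out, and the causes were not tested.

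With each library left out, the count ran from 25 to 31 for HFD WT against Chow WT, 25 to 29 for HFD S100a8f/f against Chow S100a8f/f and 9 to 16 for HFD S100a8f/fCx3cr1Cre against Chow S100a8f/fCx3cr1Cre. Of the calls, 22 of 31, 22 of 27 and 9 of 13 were lost under no alternative in these 3 comparisons, and 1 of 15 between the HFD genotypes of the Bcl2TG experiment. With the median over members in place of the mean, the replication level differed by -0.716 between HFD Bcl2TG and HFD WT, 1.096 between HFD WT and Chow WT, 1.934 between HFD S100a8f/f and Chow S100a8f/f and 1.089 between HFD S100a8f/fCx3cr1Cre and Chow S100a8f/fCx3cr1Cre, against -0.495, 0.738, 1.228 and 0.640 with the mean. With only members of at least 1 CPM on average, the mitosis level differed by 1.53 between HFD WT and Chow WT and the replication level by -0.268 between HFD Bcl2TG and HFD WT. The mitosis level between HFD S100a8f/fCx3cr1Cre and HFD S100a8f/f was -0.39, and -0.18 without HFD S100a8f/f replicate 5. Replicate numbers did not pair the libraries: same-numbered libraries deviated together with correlations of -0.48 to 0.287 over 19 pairs in the Bcl2TG experiment and -0.357 to 0.193 over 24 pairs in the S100a8 experiment. Depth limits members of both classes that stand on 0 to 3 reads in some libraries, such as Cdc6, Gins2, Ccnb1 and Cenpe.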
